A study of Mus musculus with 28 samples.

Results

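Myc and 33 genes that work with it or build ribosomes were read in sorted CD4 T cells of mice. The set holds 4 genes of the Myc network, 4 of RNA polymerase I and the ribosomal DNA, and 26 nucleolar genes of small nucleolar RNPs, nucleolar scaffold and subunit assembly. Members were the rows of the count files whose gene symbol was on a list of 34 names, and all 34 were found among 23420 symbols. The cells came from male mice aged 6 to 8 weeks that carried a Foxp3-gfp reporter allele, either wild type (WT) or Foxp3ΔCNS3-gfp, in which the Foxp3 enhancer CNS3 is deleted (KO in the sample titles). Both genotypes therefore carry the gfp reporter. Each genotype gave 4 sorted populations, which were regulatory T (Treg) cells of the thymus, CD4 single-positive non-Treg cells of the thymus (CD4SP, mCD4SP in the titles), and splenic Treg cells named rTreg and aTreg. The titles do not spell out r, a or m. There were 3 WT and 4 KO libraries per population, 28 in all. The design text speaks of a pair of littermates and of sorting and library work done in parallel, and no label ties a library to a mouse, so p-values measure the spread between these libraries, which may be technical.

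Myc is a transcription factor that binds DNA as a dimer with Max. Mxd4, of the Mad family, also pairs with Max and represses genes that Myc dimers activate. Ribosome production is among the best-known outputs of Myc: RNA polymerase I copies the ribosomal DNA, small nucleolar RNPs guide the methylation and pseudouridylation of the transcript, and assembly factors fold and cut it into the small and large subunits. In T cells, antigen and cytokine signals raise Myc, and growth of the cell precedes division.

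The sequence that Myc and Max dimers prefer, CACGTG, reads the same on both strands. RefSeq promoter windows of 300 bases around the start of each gene (GRCm38.p6) were at hand for 28 of the 34 members, and not for Myc, Fbl, Npm1, Rrp12, Bop1 and Rrs1. CACGTG occurred in 7 of those 28 windows (25%) and in 1957 of 27025 windows of all genes (7.24%). The windows of all genes were not matched to the members in expression or in base content, so the shares are of unlike sets. These 7 matches are shown, because the levels of the same genes are followed below, with up to 10 bases on each side, on the strand of the gene, 5′ to 3′, and with the motif in capitals.
Max: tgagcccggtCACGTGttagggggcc
Mxd4: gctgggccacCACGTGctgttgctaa
Mybbp1a: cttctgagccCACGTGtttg
Wdr43: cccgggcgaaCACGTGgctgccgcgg
Utp20: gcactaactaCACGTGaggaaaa
Pes1: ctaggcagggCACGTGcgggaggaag
Nop2: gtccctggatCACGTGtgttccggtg
On GRCm38.p6 these stretches lie at chr12:76962236-76962261 (Max, minus strand), chr5:34187914-34187939 (Mxd4, minus), chr11:72441357-72441376 (Mybbp1a, plus), chr17:71616222-71616247 (Wdr43, plus), chr10:88826765-88826787 (Utp20, minus), chr11:3963967-3963992 (Pes1, plus) and chr6:125131813-125131838 (Nop2, plus). The match lay 219 bases before the first transcribed base in Mxd4 and 60 before it in Nop2. In the other 5 genes it lay within 40 bases of that base. A match describes the letters of the window and is not evidence of binding. The Nop2 window is given as one example of where the letters sit, over the 250 bases before the gene, at chr6:125131633-125131882 on the plus strand.
Nop2: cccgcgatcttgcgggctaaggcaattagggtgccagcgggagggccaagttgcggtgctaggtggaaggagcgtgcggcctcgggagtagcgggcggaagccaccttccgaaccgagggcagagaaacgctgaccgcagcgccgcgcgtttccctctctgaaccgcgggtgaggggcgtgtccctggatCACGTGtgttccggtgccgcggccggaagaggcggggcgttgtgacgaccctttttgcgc

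The gene models of some members have a feature that the choice by name did not use. In the GENCODE annotation 6 of the 34 members (17.6%) hold small nucleolar RNA genes inside them, against 279 of 21951 protein-coding genes (1.27%). These hosts are Nop56 with 5 such genes, Nop58 with 4, Ncl, Gnl3 and Wdr43 with 3 each, and Dkc1 with 1. Small nucleolar RNAs are the guides that the snoRNP proteins carry.

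Libraries held 22037995 to 40754492 counts in genes, and 14216 to 15649 genes had a count. Foxp3, the factor that defines Treg cells, stood at 642 to 671 CPM (counts scaled to library size) in WT and 446 to 614 in KO thymic Treg libraries, and at 3.23 to 3.49 and 1.07 to 1.91 in WT and KO CD4SP libraries. In the spleen it stood at 579 to 662 (WT) and 508 to 602 (KO) in rTreg, and at 587 to 654 and 492 to 550 in aTreg. Cd3e, a chain of the T cell receptor complex, was between 1395 and 2124 CPM in every library. In aTreg against rTreg, all 8 markers of activated Treg cells, Klrg1 among them, were higher in both genotypes (edgeR quasi-likelihood test). KO CD4SP library 2 stood apart, with 515 CPM of 5 immature thymocyte markers against 163 to 186 in the other CD4SP libraries. It was also the highest CD4SP library in the summed markers of Treg identity (593 CPM) and proliferation (2456). The same held for the summed markers of myeloid cells (266), B cells (35.4) and CD8 T cells (171).

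Levels of different members can be compared only per length. On that scale (CPM per kilobase of exon, mean of the 8 groups) Npm1, a histone and ribosome chaperone, was highest with 278, followed by Nop10 with 190, Ncl with 97.9 and Myc with 86.7. The length joins all annotated exons of a gene, so genes with long annotated isoforms read lower. It was 10188 bases for Ncl and 2665 for Npm1. In CPM Ncl lay above Npm1 in every group, for instance 1027 against 729 in WT thymic Treg. The order of members therefore depends on the annotated lengths. Nop10 is the small core subunit of the H/ACA snoRNP and Ncl encodes nucleolin. Most assembly factors lay lower, for instance Nop14 at 18.8, Rrp12 at 4.69 and Utp20 at 3.85. Fbl, the methyltransferase of the C/D snoRNP, read only 1.35 per kilobase, and 57.6% of its transcript lies in stretches at least 98% identical to a Tulp4 transcript, so its values are uncertain. Nop56 shares 39% of its transcript with a processed pseudogene and Noc2l 20.8% with the overlapping gene Samd11, which makes their levels uncertain in the same way. Mycn, a relative of Myc, had 53 counts in all 28 libraries together and did not pass the filter on low counts, which left 33 members for testing. Together the 34 members took 0.411 to 0.543% of the gene counts of a library.

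**Figure D1:**
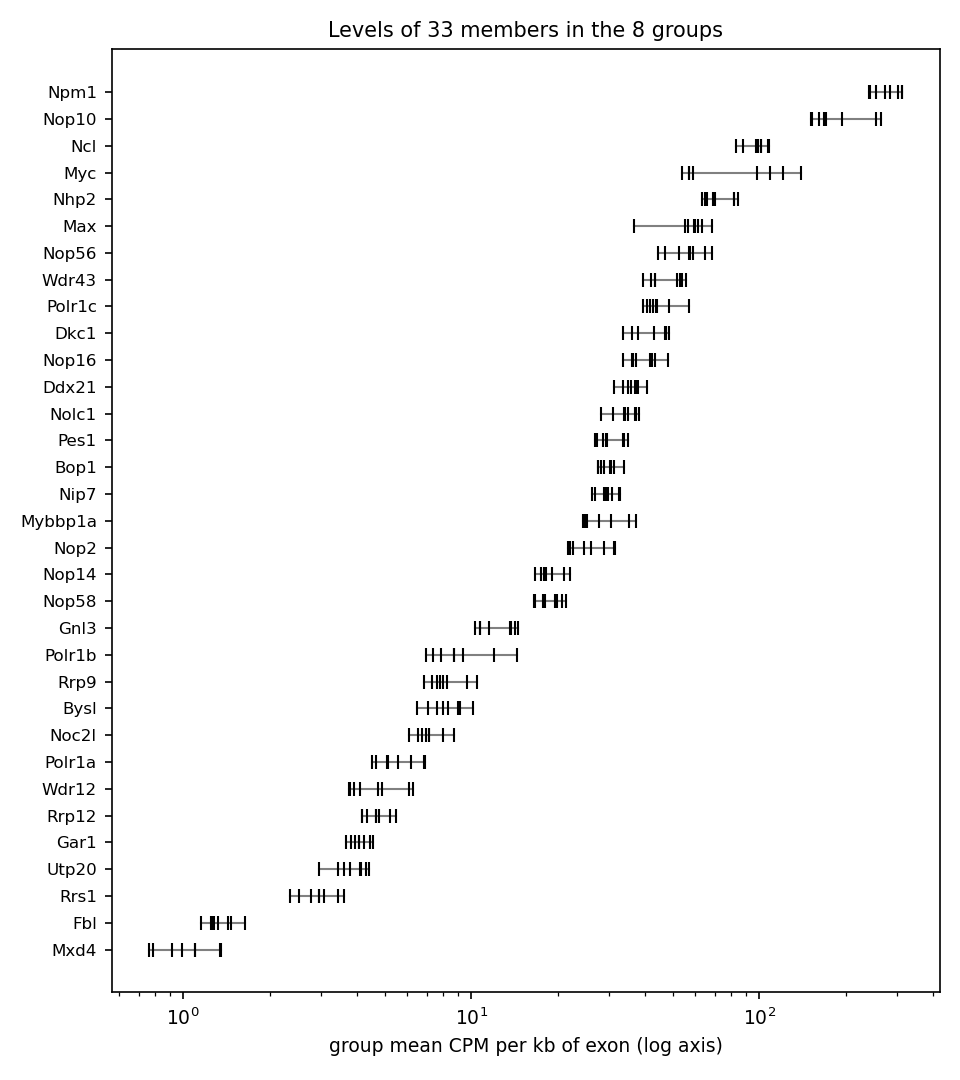
Level of each member per kilobase of all its annotated exons, on a log axis. Each tick is the mean of 1 of the 8 groups, and the line joins the lowest and highest group. Mycn is left out. Npm1, Nop10 and Ncl lie at the top and Fbl and Mxd4 at the bottom, and the ticks of Myc and Polr1b are spread widest.

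Myc, on chromosome 15 from 61985391 to 61990374 on the plus strand (GRCm38), differed most between populations among the members tested, with a highest group mean 2.57 times the lowest. In WT libraries it read 332, 363 and 289 CPM in rTreg, 261, 262 and 279 in thymic Treg, 163, 178 and 137 in CD4SP, and 146, 164 and 155 in aTreg. KO libraries read 359, 409, 377 and 364 CPM in rTreg, 326, 250, 285 and 329 in thymic Treg, 123, 145, 158 and 161 in CD4SP, and 130, 155, 156 and 175 in aTreg. The order was the same in both genotypes for the first pair of places, rTreg above thymic Treg, and all libraries of these lay above all libraries of CD4SP and aTreg, which overlapped each other. Splenic aTreg cells thus lay in the low range of the thymic CD4SP cells, and rTreg cells were the highest.

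In aTreg against rTreg, Myc fell by 1.08 on the log2 scale in WT (SE 0.114, adjusted p = 1.55e-08) and by 1.29 in KO (SE 0.0996, adjusted p = 3.11e-11, edgeR quasi-likelihood test, as for all tests here). Thymic Treg cells had more Myc than CD4SP cells, by 0.75 in WT (SE 0.114) and 1.02 in KO (SE 0.0991), and aTreg cells had less than thymic Treg cells, by -0.79 and -0.95. The rise from thymic Treg to rTreg was small, 0.29 in WT (adjusted p = 0.0484) and 0.34 in KO (adjusted p = 0.00583). That WT call was lost without any single thymic Treg library, or without rTreg library 1 or 2, with log2 fold changes of 0.22 to 0.33, and adjusted p was 0.0511 with RLE size factors. With the myeloid marker sum as a covariate the change was 0.16 in WT (adjusted p = 0.510) and 0.11 in KO (adjusted p = 0.803). Comparisons of populations within a genotype share libraries, so they are not independent of each other.

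Mxd4 ran the other way in the spleen. Its WT libraries read 6.38, 6.43 and 7.24 CPM in rTreg and 8.88, 9.39 and 9.70 in aTreg, and its KO libraries 7.0, 6.37, 6.41 and 6.07 in rTreg and 8.85, 8.57, 9.65 and 10.3 in aTreg. No aTreg library reached down to an rTreg library. The log2 fold change was 0.48 in WT (SE 0.151, adjusted p = 0.0133) and 0.53 in KO (SE 0.132, adjusted p = 0.00188). Thymic Treg cells had the highest mean Mxd4 level of the 4 populations in both genotypes, 11.5 CPM in WT, and rTreg cells had the lowest. Max, the shared partner, did not pass the test between aTreg and rTreg (0.04 in WT, -0.20 in KO).

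**Figure D2:**
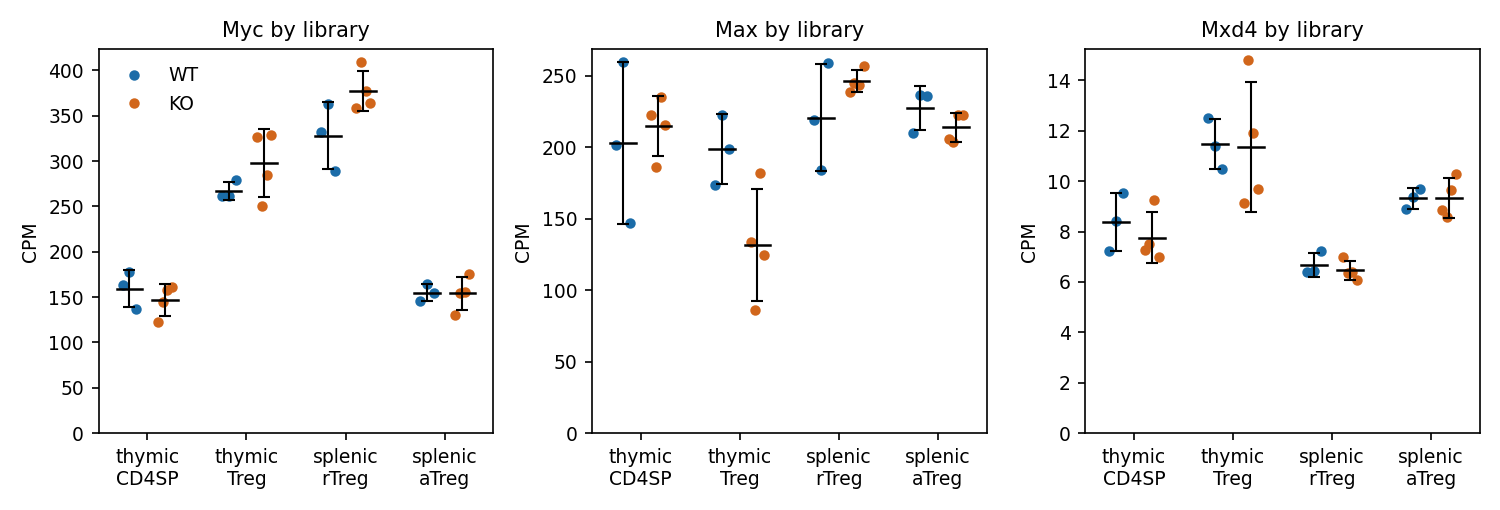
CPM of Myc, Max and Mxd4 in each library (points), with group mean and SD (black bars), for WT (3 libraries) and KO (4 libraries) in the 4 populations. Myc is high in thymic Treg and rTreg and low in CD4SP and aTreg, Mxd4 is lowest in rTreg, and Max is scattered, with its lowest library, at 86.0 CPM, in KO thymic Treg.

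Other genes of the Myc network were read from a list of 13, of which 12 were tested. In aTreg against rTreg, 1 was higher and 5 lower in WT and 2 higher and 5 lower in KO. Of all genes tested, 37.9% were called in either direction in WT and 41.6% in KO. Mxd1, a Mad family repressor like Mxd4, fell by 0.93 (WT, adjusted p = 4.24e-06) and 0.91 (KO, adjusted p = 5.66e-07). Mxd3, a Mad protein expressed in dividing cells, rose by 1.49 (adjusted p = 0.000111) and 1.09 (adjusted p = 0.000622). Members of the Mad family thus moved in both directions. In thymic Treg against CD4SP cells Mxd1 was higher, by 1.55 in WT and 1.28 in KO, and so was Mxi1, another Mad family gene, by 1.35 and 1.27.

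Of the 30 members outside the Myc network, 12 were lower in aTreg than in rTreg cells in WT and 22 in KO, and 0 were higher in either. In WT, 1 of the 33 tested members was higher and 13 were lower at an adjusted p under 0.05, against 37.9% of all 13338 genes called in either direction, 19.9% higher and 18.1% lower. The share of members called, 42.4%, was thus near that of all genes, while the share called lower, 39.4%, was above it. In KO, 1 member was higher and 23 were lower, 72.7% in all, against 41.6% of all genes in either direction and 19.9% lower. Of all genes in KO, 21.7% were called higher. The single member called higher was Mxd4 in both genotypes. The libraries of aTreg and rTreg did not overlap for 14 members in WT, where this held for 45.7% of all genes, and for 26 in KO, where it held for 43.0%. The median log2 fold change of the members was -0.21 in WT and -0.31 in KO, beside -0.01 and 0.01 over all genes tested. All 14 members called in WT were called in the same direction in KO, which is 58.3% of the 24 called there (for all genes, 80.7% of the WT and 73.5% of the KO calls were shared). These comparisons have no library in common. In bulk RNA, fewer cells of a type and less RNA per cell cannot be told apart.

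Among the RNA polymerase I genes, Polr1b, the second largest catalytic subunit of the enzyme, read 68.6, 69.3 and 71.3 CPM in WT rTreg and 51.5, 51.7 and 49.0 in WT aTreg libraries. In KO it read 80.1, 84.1, 91.3 and 79.6 in rTreg and 45, 46.6, 50.5 and 39.8 in aTreg libraries. The groups did not overlap in either genotype, and the KO groups lay farther apart. The log2 fold change was -0.46 in WT (SE 0.153, adjusted p = 0.0190) and -0.88 in KO (SE 0.134, adjusted p = 5.18e-06), and the difference between these, -0.42, did not pass the test over all genes (adjusted p = 1.0). In WT the Polr1b call was lost without rTreg library 3 (adjusted p = 0.0501) or aTreg library 3 (adjusted p = 0.0628), and with the myeloid marker sum described below as a covariate (-0.19, adjusted p = 0.548). Mybbp1a, which binds Myb and sits in the nucleolus, read 198, 229 and 188 CPM in WT rTreg, 144, 157 and 139 in WT aTreg, 206, 207, 240 and 212 in KO rTreg, and 130, 137, 152 and 148 in KO aTreg libraries. Every aTreg library lay below every rTreg library. It fell by 0.48 (WT, adjusted p = 0.000234) and 0.61 (KO, adjusted p = 1.33e-06). Polr1a, the largest subunit, fell in KO (-0.41, adjusted p = 0.00179) and did not pass in WT (-0.13, adjusted p = 0.407). Polr1c, a subunit shared with RNA polymerase III, did not pass in either (0.11 and 0.04).

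Among the snoRNP genes, Nop56, a core protein of the C/D particle that guides methylation, had the second smallest p of the members after Myc. It read 258, 271 and 271 CPM in WT rTreg, 173, 197 and 208 in WT aTreg, 268, 269, 295 and 288 in KO rTreg, and 172, 169, 188 and 201 in KO aTreg libraries. Every aTreg library lay below every rTreg library, with log2 fold changes of -0.47 (SE 0.0697, adjusted p = 4.65e-06) and -0.62 (SE 0.0606, adjusted p = 3.33e-09). Rrp9, which binds the U3 snoRNP, fell by 0.40 and 0.47, and Nop58, the partner of Nop56, passed in KO (-0.31, adjusted p = 0.0370) and not in WT (-0.13). Fbl did not pass in either (-0.04 and -0.16). In the H/ACA particle, which guides pseudouridylation, only Dkc1, the pseudouridine synthase itself, passed, with -0.39 in WT (adjusted p = 0.00222) and -0.50 in KO (adjusted p = 2.93e-05). Its libraries read 188, 205 and 194 CPM in WT rTreg, 128, 158 and 160 in WT aTreg, 183, 183, 222 and 196 in KO rTreg, and 125, 125, 151 and 153 in KO aTreg, with no overlap. Gar1, Nhp2 and Nop10, the other core subunits, had log2 fold changes between -0.16 and 0.07 and none passed in either genotype.

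Among the abundant nucleolar proteins, Npm1 read 832, 792 and 793 CPM in WT rTreg and 540, 658 and 736 in WT aTreg libraries. In KO it read 826, 840, 825 and 848 in rTreg and 588, 604, 665 and 715 in aTreg libraries. The aTreg libraries were lower throughout and more scattered, with log2 fold changes of -0.32 (adjusted p = 0.0113) and -0.38 (adjusted p = 0.000801). Nolc1, a chaperone of snoRNPs, fell by 0.25 and 0.44, and Gnl3, the GTPase nucleostemin, by 0.34 and 0.40. Ncl did not pass in either genotype (-0.05 in WT, -0.11 in KO), and Ddx21, an RNA helicase of rRNA processing, passed in KO (-0.14, adjusted p = 0.0476) and not in WT (0.02). That Ddx21 call was lost with DESeq2 (adjusted p = 0.0669), with limma voom (0.0502), with RLE size factors (0.0776) and without any one of 6 of the 8 libraries, and the difference between the genotypes did not pass. The WT call of Npm1 was lost without aTreg library 1 (-0.21, adjusted p = 0.108).

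Of the 5 small subunit assembly factors, 3 were lower in WT and 5 in KO. Wdr43, a component of the early small subunit precursor, read 237, 241 and 264 CPM in WT rTreg, 179, 226 and 196 in WT aTreg, 263, 268, 259 and 274 in KO rTreg, and 201, 202, 208 and 220 in KO aTreg libraries. These groups did not overlap, and Wdr43 fell by 0.30 (adjusted p = 0.000836) and 0.36 (adjusted p = 1.96e-05). Bysl, needed for late small subunit processing, fell by 0.41 and 0.50, and Nop14 by 0.26 and 0.28. Utp20 and Rrp12 passed in KO (-0.28 and -0.39) and not in WT (-0.13 and -0.33). Of the 8 large subunit factors, 1 was lower in WT and 6 in KO. The WT call was Nop2, an rRNA methyltransferase, with 79.8, 99.3 and 80.1 CPM in rTreg and 66.2, 70.4 and 69.1 in aTreg libraries, without overlap. Its log2 fold change was -0.33 in WT (adjusted p = 0.0276), and the call was lost without rTreg library 2 (adjusted p = 0.188), aTreg library 1 (0.0797) or aTreg library 3 (0.0601). In KO, where the libraries read 81.5, 78.4, 102 and 88.1 against 57.2, 54.4, 63.7 and 69.2, it fell by 0.52 (adjusted p = 0.000185). The 3 proteins of the PeBoW complex, Pes1, Bop1 and Wdr12, fell by 0.28, 0.26 and 0.32 in KO and did not pass in WT (-0.19, -0.14 and -0.21). Nop16 and Noc2l, the other large subunit factors called in KO, fell by 0.38 and 0.29. With the replicate number as a block, Nip7 also passed in KO (-0.16, adjusted p = 0.0462).

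**Figure D3:**
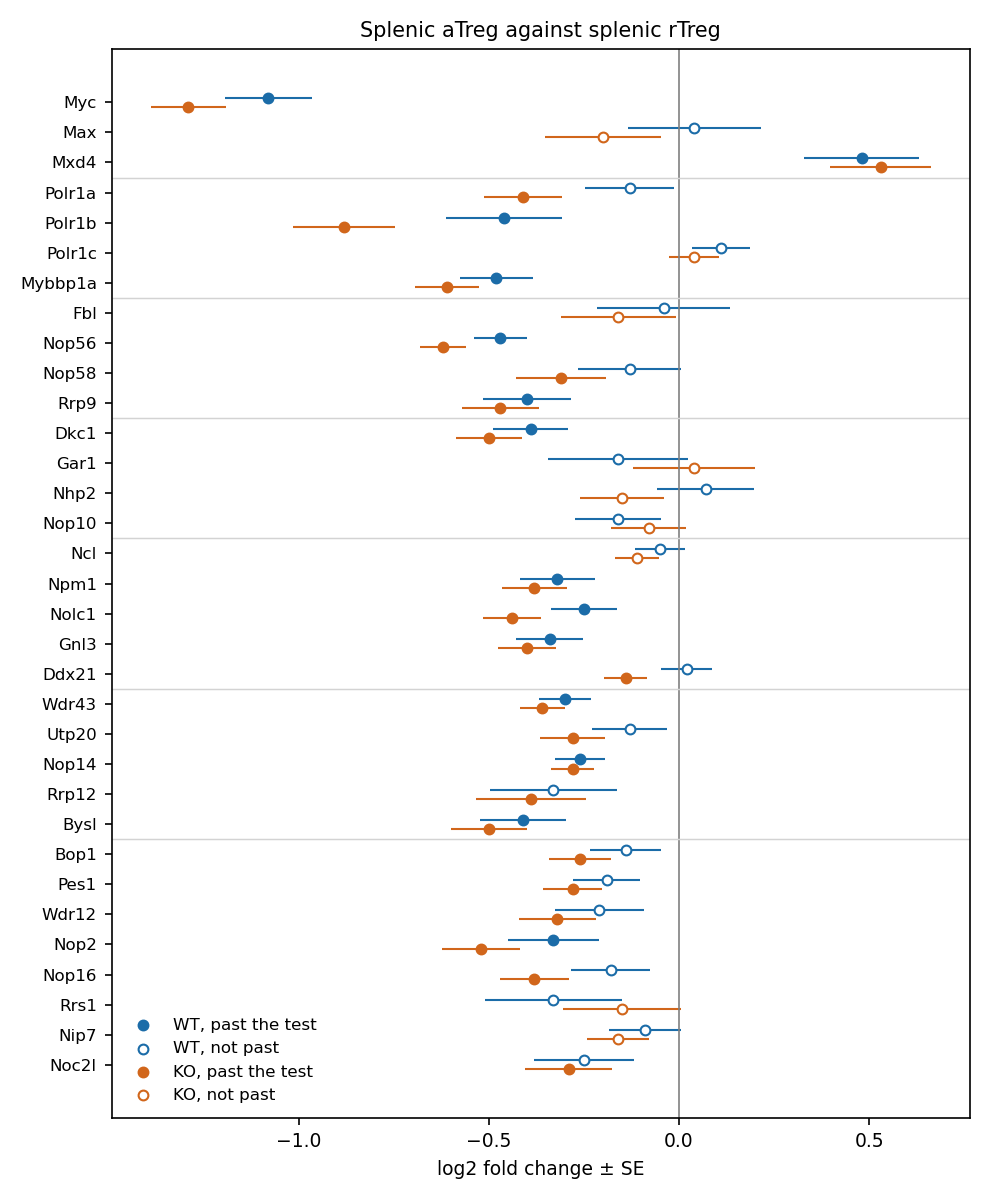
Log2 fold change of aTreg against rTreg for the 33 tested members, with SE bars, in WT (blue) and KO (orange). Filled points passed the test at an adjusted p under 0.05, and grey lines part the groups of genes by role. Most points lie left of 0, Myc farthest with -1.08 and -1.29, and Mxd4 is the only filled point to the right.

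Of the 7 members with CACGTG in the promoter window, Mybbp1a, Wdr43 and Nop2 were lower in aTreg cells in both genotypes, Mxd4 was higher in both, and Max passed in neither. Utp20 and Pes1 were lower in KO and did not pass in WT. The members without a match included Nop56 and Dkc1, which were lower as well. The genotypes were not shown to differ here: in the test of the KO effect in aTreg minus that in rTreg, 0 of 33 members passed in edgeR, DESeq2 and limma voom (0.00% of all genes in edgeR), and 1 member had an unadjusted p under 0.05.

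Markers of other cells moved with this comparison. Of 9 myeloid markers, 6 were higher in aTreg cells in each genotype and 0 lower. Lyz2 averaged 13.2 CPM in WT rTreg and 95.6 in WT aTreg, and 8.48 and 37.4 in KO. Cd14 was near 0 in rTreg, at 0.0523 CPM in WT and 0.0938 in KO. The 9 markers summed to 115 to 119 CPM in WT rTreg, 274 to 322 in WT aTreg, 101 to 123 in KO rTreg and 196 to 222 in KO aTreg libraries. Most of the rTreg sum was Cst3, at 94.8 CPM in WT and 95.9 in KO, against 134 and 137 in aTreg. The 8 B cell markers summed to 67.1 to 82.8 against 100 to 124 in WT and 72.2 to 85.6 against 118 to 135 in KO. The 5 CD8 T cell markers summed to 89.5 to 96.2 against 266 to 282 in WT and 101 to 140 against 321 to 455 in KO. Most of the aTreg sum was Ccl5, at 184 CPM in WT and 286 in KO. Cd8a and Cd8b1 had lower means in aTreg than in rTreg in both genotypes. The part of the B cell and the CD8 markers in this comparison was not tested. With the myeloid sum as a covariate, 6 members were called in WT in place of 14, all lower, and 20 in KO in place of 24. In the same fits 21.4% of all genes were called in WT and 28.1% in KO. The myeloid sums of the compared groups do not overlap in any comparison where this covariate lowered the number of members called. A call lost with it may therefore reflect a wider error of the estimate, which was not tested. Myc kept its calls, at -0.95 (adjusted p = 2.16e-05) in WT and -1.20 (adjusted p = 5.90e-09) in KO, and Mxd4 lost its call in WT (0.38, adjusted p = 0.219).

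The wider pathway was read from lists of its other genes. Of 41 other small subunit factors tested in aTreg against rTreg, 2 were higher and 19 lower in WT and 3 higher and 27 lower in KO, with medians of -0.20 and -0.21. Nob1, the nuclease that finishes the small subunit RNA, fell by 0.56 and 0.61, and Utp14a by 0.47 and 0.54, while Nol10 rose by 0.76 in WT and 0.53 in KO. Of 43 other large subunit factors, 0 were higher and 11 lower in WT, and 1 was higher and 20 lower in KO. Nle1 fell by 0.54 and 0.72, and Mdn1, the AAA ATPase that strips factors from the large subunit precursor, by 0.47 and 0.64. Of 14 other genes of the RNA polymerase I machinery, 0 were higher and 5 lower in WT and 0 higher and 7 lower in KO, led by Ptrf. Ptrf, which is also the caveolar coat protein Cavin1, had a mean of 7.24 CPM in WT rTreg and 1.72 in WT aTreg cells, and of 81.2 in WT thymic Treg cells. Of 10 other genes of snoRNP assembly, 0 were higher and 2 lower in each genotype, Naf1 and Tgs1. Of all genes tested, 18.1% were called lower in WT and 19.9% in KO, and 19.9% and 21.7% higher. The snoRNP assembly share called lower is near that of all genes.

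Genes of cell division went the other way. Of 20 proliferation genes, 17 were higher and 0 lower in aTreg against rTreg cells in WT, and 15 higher and 0 lower in KO, with medians of 1.41 and 0.90. Mki67, the Ki-67 antigen of dividing cells, averaged 33.6 CPM in WT rTreg and 119 in WT aTreg cells (log2 fold change 1.82, adjusted p = 3.75e-07), and 43.7 and 110 in KO (1.33, adjusted p = 3.75e-06). So aTreg cells, with less Myc, had more transcripts of most of these division genes. Classic Myc targets outside the nucleolus did not follow one direction. Of 20 tested, 2 were higher and 1 lower in WT and 1 higher and 4 lower in KO. These shares lie below those of all genes, of which 37.9% were called in WT and 41.6% in KO. Odc1, the first enzyme of polyamine synthesis and a textbook Myc target, rose by 1.23 in WT (adjusted p = 1.24e-07) and 1.14 in KO (adjusted p = 3.34e-08).

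**Figure D4:**
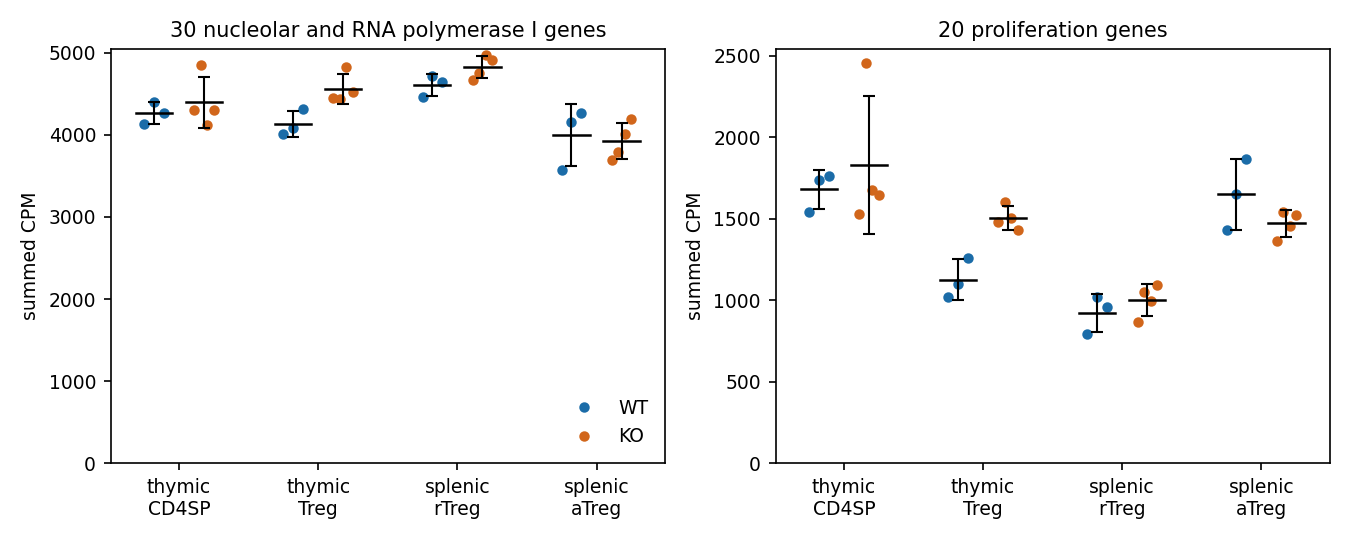
Summed CPM of the 30 members outside the Myc network (left) and of 20 proliferation genes (right) in each library, with group mean and SD. Ncl and Npm1 are the largest parts of the left sum. The left sum is 4458 to 4974 in rTreg and 3569 to 4268 in aTreg libraries, and the right sum is 792 to 1092 in rTreg and 1361 to 1867 in aTreg libraries.

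In the thymus, Treg cells had more Myc than CD4SP cells in both genotypes. Of the 13 subunit assembly factors, 7 were lower and 0 higher in Treg cells in WT, while in KO 3 were lower and 3 (Pes1, Nop2 and Nop16) higher. In WT, 3 members were higher and 13 lower, where 48.3% of all genes were called, 26.8% higher and 21.6% lower. The called share of members, 48.5%, is near that background, and the share called lower, 39.4%, is above it. The libraries did not overlap for 22 members, where this held for 58.7% of all genes. In KO, 9 were higher and 8 lower, 51.5% against 56.5% of all genes (30% higher and 26.5% lower), and the libraries did not overlap for 13 members, against 45.5% of all genes. The medians were -0.15 in WT and 0.04 in KO, and 9 members were called in the same direction in both genotypes, 56.2% of the WT and 52.9% of the KO calls (for all genes, 82.8% and 70.8%). These were Myc, Mxd4 and Ncl, all higher in Treg cells, and Polr1a, Nop10, Gnl3, Wdr43, Utp20 and Wdr12, all lower.

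Wdr12 had the largest fall in WT, and in KO the largest after Max (-0.71). Wdr12 read 42.6, 43.6 and 48.2 CPM in WT Treg, 67.5, 82.3 and 75.3 in WT CD4SP, 40.3, 44.4, 53.1 and 43.5 in KO Treg, and 69.8, 82.0, 71.3 and 67.7 in KO CD4SP libraries. No Treg library reached a CD4SP library, and the log2 fold changes were -0.74 (adjusted p = 5.47e-06) and -0.68 (adjusted p = 1.77e-06). Nop10 read 190, 184 and 196 CPM in WT Treg, 268, 295 and 286 in WT CD4SP, 194, 221, 254 and 191 in KO Treg, and 331, 306, 257 and 281 in KO CD4SP libraries. Its groups lay apart as well, with -0.58 (adjusted p = 0.000121) and -0.45 (adjusted p = 0.000310). Ncl was higher in Treg cells, and Npm1 did not pass in either genotype (0.11 and 0.13). Ncl read 1002, 1018 and 1060 CPM in WT Treg, 840, 858 and 833 in WT CD4SP, 1078, 1078, 1174 and 1067 in KO Treg, and 860, 1033, 827 and 849 in KO CD4SP libraries, of which the high CD4SP value belongs to library 2. The log2 fold changes were 0.28 (adjusted p = 0.000902) and 0.30 (adjusted p = 6.81e-05). With the replicate number as a block, Rrp9 also passed in WT (-0.27, adjusted p = 0.0301).

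Markers of other cells and of division differed here too. The myeloid sum was 260 to 357 CPM in WT Treg and 90.6 to 102 in WT CD4SP libraries, and 396 to 887 and 88.0 to 266 in KO. With that sum as a covariate, 7 members were called in WT and 6 in KO, and 33.7% and 30.3% of all genes. The B cell markers summed to 32.6 to 36.1 CPM in WT Treg and 6.28 to 7.83 in WT CD4SP libraries, and the CD8 T cell markers to 303 to 351 and 96.6 to 104. In KO the B cell sums were 49.5 to 53.5 and 5.06 to 35.4, and the CD8 sums 455 to 538 and 94.0 to 171. The highest KO CD4SP value of the myeloid, B cell and CD8 sums was that of library 2. In WT Treg libraries most of the CD8 sum was Ccl5 and Nkg7. These averaged 138 and 134 CPM there and 1.32 and 3.99 in WT CD4SP libraries. Cd8b1 went the other way, at 43.8 against 88.8 in WT and 41.1 against 94.6 in KO. Cd8a averaged 9.25 against 6.21 in WT and 7.21 against 8.62 in KO. The part of the B cell and CD8 markers in the result was not tested. Without WT Treg library 1, 10 were called in WT. The proliferation genes were lower in Treg than in CD4SP cells, 15 of 20 in WT with 0 higher, and 10 of 20 in KO with 2 higher, so that in the thymus the population with more Myc had lower levels of many division genes.

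Between splenic rTreg and thymic Treg cells, the members that passed were mainly higher in rTreg cells. In WT, 12 were higher and 2 lower, where 30.6% of all genes were called, 13.9% higher and 16.7% lower. In KO, 14 were higher and 3 lower, where 42.9% of all genes were called, 19.6% higher and 23.3% lower. The libraries did not overlap for 20 members in WT and 16 in KO, where this held for 45.4% and 38.0% of all genes. The shares of members called higher were 36.4% and 42.4%, and 12 members were called in the same direction in both genotypes, 85.7% of the WT and 70.6% of the KO calls (for all genes, 78.3% and 55.8%). The medians were 0.26 and 0.19.

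Wdr43, with the smallest p in WT, read 181, 192 and 191 CPM in WT and 201, 205, 203 and 220 in KO thymic Treg libraries, all below the rTreg values given above. Its log2 fold change was 0.39 in WT (adjusted p = 6.83e-05) and 0.36 in KO (adjusted p = 1.99e-05). Nop14 rose by 0.33 and 0.30, Rrp9 by 0.49 and 0.40, Gnl3 by 0.35 and 0.25, and Nop56 by 0.30 and 0.22. Utp20, a scaffold of the early small subunit precursor, read 35.2, 33.4 and 36.7 CPM in WT and 28.2, 28.5, 28.2 and 36.2 in KO thymic Treg libraries, and 43.0, 41.7 and 42.0 and 44.0, 45.7, 47.2 and 43.3 in the WT and KO rTreg libraries. The groups stood apart in both genotypes, at 0.27 (adjusted p = 0.0390) and 0.57 (adjusted p = 5.63e-06), and the WT call was lost without any single library of the 6, with adjusted p of 0.0504 to 0.120. Polr1c was lower in rTreg cells, by -0.29 in WT (adjusted p = 0.00472) and -0.49 in KO (adjusted p = 1.39e-06), and Mxd4 by -0.78 and -0.81.

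Markers of other cells, of division and of handling stress differed between these populations. The myeloid sums are given above. The proliferation genes summed to 792 to 1017 CPM in WT rTreg and 1018 to 1261 in WT thymic Treg libraries. In KO these sums were 863 to 1092 and 1428 to 1600. The CD8, immature thymocyte and activated Treg sums were also lower in rTreg, and the B cell sum higher, without overlap in either genotype. The 8 genes of handling stress, such as Fos and Jun, summed to 740 to 870 CPM in WT rTreg and 989 to 1735 in KO rTreg libraries, against 169 to 196 in WT and 199 to 273 in KO thymic Treg libraries. With the myeloid sum as a covariate, 4 members were called in WT and 1 in KO, and 15.6% and 6.94% of all genes. In KO, 4 members and 10% of all genes were called when the covariate was the percent of reads outside genes. That percent was higher in every KO rTreg than in every KO thymic Treg library, so this fit cannot part it from population. The part of handling stress, division and the CD8, immature thymocyte, activated Treg and B cell markers in the result was not tested. The spleen and the thymus differ in tissue as well, so these cannot be told apart.

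Against thymic Treg cells, aTreg cells differed in few members in WT. There 1 was higher and 1 lower, where 40.3% of all genes were called, 19.9% higher and 20.4% lower, and the libraries did not overlap for 4 members, against 50.5% of all genes. The higher one was Ddx21, with 158, 157 and 172 CPM in thymic Treg and 190, 200 and 200 in aTreg libraries (0.28, adjusted p = 0.00139), and the lower one was Myc. Without WT aTreg library 3, 6 members were called. In KO, 2 were higher and 13 lower, where 41.9% of all genes were called, 20.6% higher and 21.3% lower, and the libraries did not overlap for 12 members, against 36.5% of all genes. The KO count was 9 with the myeloid sum as a covariate (27.1% of all genes) and 7 with the percent of reads outside genes (30% of all genes). That percent was mostly higher in KO aTreg than in KO thymic Treg libraries, so the fit parts it poorly from population. The B cell sum was 100 to 124 CPM in WT aTreg against 32.6 to 36.1 in WT thymic Treg libraries and 118 to 135 against 49.5 to 53.5 in KO, and the handling stress sum 638 to 789 against 169 to 196 in WT and 984 to 1446 against 199 to 273 in KO. Their part in the result was not tested. The median was -0.01 in WT and -0.15 in KO. Nop16, a large subunit factor, fell in KO by 0.52 (adjusted p = 3.85e-05), from 82.7, 89.6, 97.4 and 86.2 CPM in thymic Treg to 55.3, 57.8, 67.5 and 67.2 in aTreg libraries, which do not overlap. In WT it read 73.8, 72.8 and 83.9 against 58.6, 70.6 and 78.1, which do overlap (-0.15, adjusted p = 0.255). Of the difference between these effects, 0 of 33 members passed in edgeR, DESeq2 or limma voom (0.847% of all genes did in edgeR, 0.487% higher and 0.360% lower), and 10 had an unadjusted p under 0.05, with the smallest adjusted p, 0.159, for Nhp2.

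Few members differed between KO and WT cells. In thymic Treg cells 2 members were higher and 1 lower in KO than in WT, 9.09% of the members against 9.34% of all genes, so the share is near that of the background, in which 4.21% were higher and 5.13% lower. The libraries did not overlap for 7 members, where this held for 22.1% of all genes. The members called were Max, Polr1c and Ddx21. Max, on chromosome 12 from 76937269 to 76962201 on the minus strand, read 174, 223 and 199 CPM in the WT libraries and 134, 86.0, 182 and 125 in the KO libraries. KO library 3 lay inside the WT range and library 2 was the lowest. Its log2 fold change was -0.59 (SE 0.163, adjusted p = 0.0207), and -0.44 without KO library 2, which lost the call, as did leaving out WT library 2 (-0.51) or WT library 3 (-0.59).

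Polr1c read 103, 112 and 116 CPM in the WT thymic Treg libraries and 131, 136, 133 and 119 in the KO ones, without overlap (0.23, SE 0.0714, adjusted p = 0.0370). Ddx21 read 158, 157 and 172 CPM in the WT libraries and 181, 180, 179 and 202 in the KO ones, without overlap (0.20, SE 0.0620, adjusted p = 0.0454). Both calls are near the threshold. Each was lost without any one of 5 single libraries, and the number of members called was 0 without WT library 2, 1 without WT library 1 or KO library 1, 2 or 3, and 5 without KO library 4. It was 1 without the filter on low counts and 0 when only the libraries of this comparison were fitted. Myc itself had a log2 fold change of 0.15 (95% interval -0.06 to 0.37), and Mxd4 one of -0.02 (-0.30 to 0.26).

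The nucleolar and RNA polymerase I members in thymic Treg cells had a median of 0.16, beside 0.02 for all genes, with 26 of 30 log2 fold changes above 0. Their summed level was 4434 to 4834 CPM in KO and 4011 to 4311 in WT libraries, which do not overlap. The proliferation genes were higher as well in KO, 8 of 20 with 0 lower (median 0.53), and the myeloid sum was 396 to 887 CPM in KO against 260 to 357 in WT. The sums of several other lists did not overlap either. Activated Treg markers had 1460 to 1744 CPM in KO against 1057 to 1244 in WT, and B cell markers 49.5 to 53.5 against 32.6 to 36.1. The CD8 T cell list had 455 to 538 against 303 to 351, and handling stress genes 199 to 273 against 169 to 196. Immature thymocyte markers went the other way, with 130 to 157 in KO against 172 to 187 in WT. Of the CD8 list, Ccl5 averaged 269 CPM in KO and 138 in WT libraries, and Nkg7 175 and 134. Cd8a and Cd8b1 had lower means in KO, at 7.21 against 9.25 and 41.1 against 43.8. The part of these lists in the result was not tested. With the myeloid sum as a covariate, 0 members were called (3.29% of all genes). With the percent of reads outside genes as the covariate 0 were called (0.337% of all genes), and the median of the members was 0.01. That percent was lower in every KO than in every WT thymic Treg library, so this fit cannot part it from genotype. Calls lost with it may reflect a wider error of the estimate, which was not tested. With KO libraries 1 and 2 left out together, 0 were called.

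**Figure D5:**
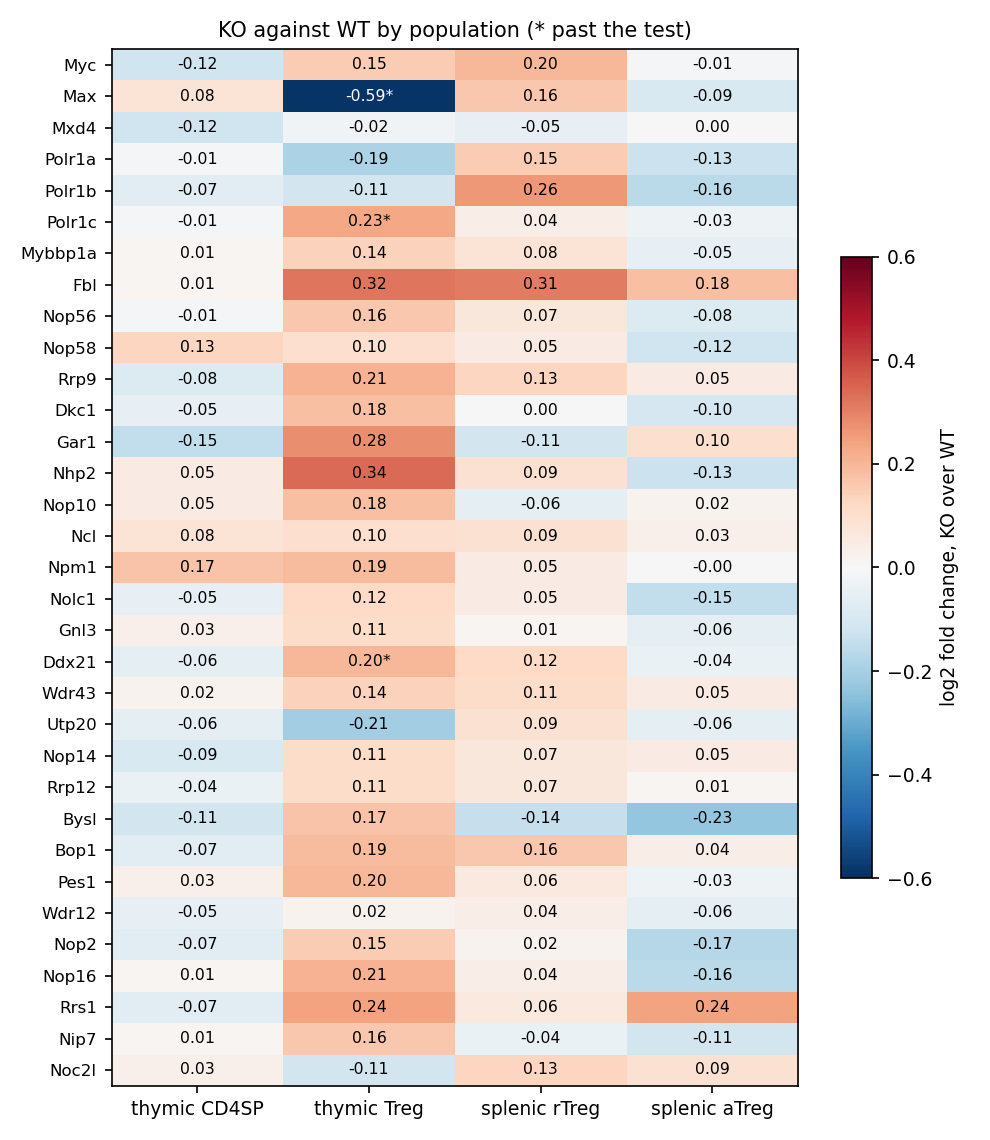
Log2 fold change of KO over WT for the 33 tested members in each population, as numbers and colour (red higher in KO, blue lower). Stars mark adjusted p under 0.05. The starred cells are Max (-0.59), Polr1c (0.23) and Ddx21 (0.20) in thymic Treg, and the other columns have none.

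Elsewhere 0 members passed between KO and WT in edgeR, DESeq2 or limma voom. In CD4SP cells 0.195% of all genes passed in edgeR, 0.165% higher and 0.0300% lower, 0 members had groups without overlap (5.03% of all genes did), and 0 had an unadjusted p under 0.05. In rTreg cells 0.135% of all genes passed, 0.0825% higher and 0.0525% lower, 5 members had groups without overlap (7.85% of all genes), and again 0 had an unadjusted p under 0.05. In aTreg cells 0.0300% of all genes passed, 0.0225% higher and 0.00750% lower, 2 members had groups without overlap (8.12% of all genes), and 1, Bysl at -0.23, had an unadjusted p under 0.05. Log2 fold changes lay between -0.15 (Gar1) and 0.17 (Npm1) in CD4SP, between -0.14 (Bysl) and 0.31 (Fbl) in rTreg, and between -0.23 (Bysl) and 0.24 (Rrs1) in aTreg cells. The 95% interval of a member reached a median of 0.21 to 0.22 to either side in these comparisons. For Myc the interval was -0.33 to 0.10 in CD4SP, -0.01 to 0.42 in rTreg and -0.23 to 0.21 in aTreg cells.

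The KO effect in thymic Treg cells was also compared with those elsewhere. In thymic Treg minus CD4SP, 0 of 33 members passed in edgeR, DESeq2 or limma voom (0.615% of all genes did in edgeR, 0.315% higher and 0.300% lower), and 5 had an unadjusted p under 0.05. In thymic Treg minus rTreg, 0 passed with the same tools (0.0300% of all genes in edgeR) and 4 had an unadjusted p under 0.05. Max had the smallest adjusted p in both, 0.173 (shared with Ddx21) and 0.268, with differences of -0.68 and -0.75. The KO effect on the members was thus not shown to differ between populations.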

How the data were processed

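RNA was extracted with TRIzol, amplified by SMART and sequenced as read pairs on a HiSeq instrument, per the labels' protocols. Trimmomatic, STAR, HTSeq and the mm10 build are named in the submitters' processing notes; their versions, the annotation and the use of strand were not given in these sources. Reads of overlapping or antisense genes therefore cannot be separated. The values the authors deposited are whole-number counts for each gene symbol, without normalisation. HTSeq's summary lines did not enter library sizes, and 42.3 to 49.7% of reads were in its no-feature line.

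Counts of all 28 libraries entered 1 edgeR 4.0.16 quasi-likelihood fit (R 4.3.3) with a mean per group, TMM factors (0.970 to 1.04), filterByExpr (13338 genes kept) and 20 residual degrees of freedom, tested on simulated data. P-values were adjusted by Benjamini-Hochberg over the whole table, and calls were made under 0.05. CPM values use TMM-scaled library sizes. SE is the log2 fold change over the square root of F. The biological coefficient of variation was 12.7%. Chi-square per degree of freedom between libraries of a group was 7.08 to 37.6, so none agreed within sampling noise. Depth limits mainly members under 10 CPM.

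The members and lists were chosen with earlier results of these data known. Named genes are the members, the 3 list genes with the smallest p past the test in a comparison, Foxp3, identity markers, Mki67 and Top2a. Cd8a, Cd8b1, Ccl5, Nkg7 and Cst3 were named after their values were seen. Alternatives were RLE size factors, no filter, DESeq2 1.42.0, limma 3.58.1 voom, only the libraries compared, a replicate block, each library left out, and covariates for reads in no gene and for myeloid markers. Same-numbered libraries had correlated deviations above 0.1 in every pair for KO rTreg with aTreg (0.12 to 0.23) and WT thymic Treg with CD4SP (0.11 to 0.13), taken as pairing there from the data, and also for WT CD4SP with rTreg (0.10 to 0.14), which were not compared; in no other set did every pair. Near-identical stretches were found with blastn. Positions and exon lengths are from GENCODE on GRCm38, promoter windows from RefSeq.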

Additional observations from a re-analysis of the deposited data

Results flagged for a closer look

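In the KO groups, which have 4 libraries, 140 group values were examined for a library far from the others by Dixon's ratio, and 13 were marked, where chance alone marks about 1 in 20. In thymic Treg cells, library 3 had 11.1 CPM of Gar1 (others 6.02 to 6.87) and 1174 of Ncl (others 1067 to 1078), and library 4 had 202 of Ddx21 (others 179 to 181) and 36.2 of Utp20 (others 28.2 to 28.5). In CD4SP cells, library 2 had 1033 CPM of Ncl (others 827 to 860) and 0.577 of Mycn (others 0.00 to 0.0700), and library 3 had 60.0 of Nop16 (others 69.3 to 70.6). In rTreg cells, library 4 had 31.6 CPM of Bysl (others 36.1 to 37.0) and 30.2 of Noc2l (others 22.7 to 23.7), library 3 had 26.6 of Rrp12 (others 22.7 to 23.2), and library 1 had 0.0628 of Mycn, with 0.00 in the others. In aTreg cells, library 4 had 7.95 CPM of Gar1 (others 6.63 to 6.72) and library 1 had 177 of Ddx21 (others 194 to 197).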

How the results depend on the processing

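The number of members called in aTreg against rTreg KO cells (24) stayed within 1.5 times under all alternatives run, and lay between 18 and 24 without single libraries. With the myeloid sum as a covariate the counts were 0 for KO against WT thymic Treg (3 without it), 7 for thymic Treg against CD4SP in WT (16) and 6 in KO (17), 4 for rTreg against thymic Treg in WT (14) and 1 in KO (17), 9 for aTreg against thymic Treg in KO (15) and 6 for aTreg against rTreg in WT (14); Max in KO thymic Treg against CD4SP turned to 0.03 and Polr1a in KO rTreg against thymic Treg to -0.12. With the percent of reads outside genes as the covariate they were 0 for KO against WT thymic Treg, 4 for rTreg and 7 for aTreg against thymic Treg in KO. KO against WT thymic Treg gave 1 without the filter, 0 with only the libraries compared and 0 without KO libraries 1 and 2. The cause was not tested. The replicate block gave 4 for aTreg against thymic Treg in WT (2 without it) and moved no other count beyond 1.5 times; same-numbered KO and WT libraries had deviations correlated at -0.10 to 0.16. Without single libraries the ranges were 0 to 5 for KO against WT thymic Treg, 10 to 16 for WT thymic Treg against CD4SP, 10 to 13 for WT rTreg and 2 to 6 for WT aTreg against thymic Treg, 11 to 16 for WT aTreg against rTreg, and 0 to 1 for the KO effect in thymic Treg minus aTreg, where the 1 came without WT aTreg library 1. Of all single-gene values, 1749 kept their call, 231 lost it, 69 gained it and 2 changed sign. Robust spread estimation, added after seeing the data, moved no count beyond 1.5 times. Depth limits what can be said of Mycn, at 0 to 16 counts a library.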
